A study of Mus musculus with 12 samples.

Results

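The 40 imprinted genes described here are mouse genes with a known parental bias in at least some tissue, matched by symbol to the 21859 protein-coding genes of an RNA-seq table of spermatogonia. All 40 symbols were in the table. Of these, 23 are paternally expressed (*Igf2*, *Peg3*, *Usp29* and others), 14 maternally expressed (*Phlda2*, *Kcnq1*, *Igf2r* and others) and 3 depend on the isoform (*Grb10*, *Ddc*, *Gnas*), and they lie in 18 domains on 10 chromosomes.

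The mice were males aged 8 to 10 weeks that had undergone unilateral cryptorchid surgery. Each animal thus carried an abdominal testis on the left and its own scrotal testis on the right, and the latter gave the control cells. At day 10, undifferentiated spermatogonia were sorted from mice carrying GFRa1-EGFP, a reporter for the GDNF receptor that marks stem-cell-enriched spermatogonia, as GFRa1+/KIT- cells, and RNA of about 200 cells per library was amplified by Smart-seq2. The comparison is between 5 control and 7 cryptorchid libraries, and all of them share the reporter, the sort and the day. Which libraries came from the same mouse is not stated, nor is the strain of the sorted mice, and cryptorchid testes were digested at a warmer temperature than control testes, so surgery and digestion cannot be told apart. *P*-values therefore measure the spread between these libraries, which may be partly technical.

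An imprinted gene is read mainly from the copy inherited from one parent. The choice is set by DNA methylation at an imprinting control region, laid down in the germ line of the mother or the father and kept through cell division by DNMT1 and the zinc finger protein ZFP57. Many imprinted genes act on fetal and placental growth, and several share a domain in which coding genes and a long noncoding RNA are controlled together. In the male germ line the old marks are erased in primordial germ cells and paternal marks are set before birth, so adult spermatogonia carry paternal-type marks on both chromosomes. The table holds totals per gene, so neither the parental allele nor the isoform behind a value can be told.

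Values are log2 RPM (reads scaled to the library total, on a log2 scale). A gene without reads holds the value of 0.9 reads in its library, and counts as not detected. Reads on genes ranged from 4511730 to 24345368 in the control and from 3306771 to 20027902 in the cryptorchid libraries. Replicates 1 to 3 stood apart from the later ones: among genes with 1 to 20 reads, 53.2 to 60.8% had an even number in replicates 1 to 3 and 48.2 to 50.5% in the others. Both sets hold control and cryptorchid libraries (3 of each against 2 and 4), and differences within each set are given beside the genes past a threshold and those in which the sets differ most. *Gfra1* was at 6.80 to 9.10 log2 RPM in the control and 7.36 to 9.59 in the cryptorchid libraries, and *Kit* at 3.67 to 5.31 and 4.23 to 5.74.

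Of the 40 genes, 32 had reads in all 12 libraries, and 38 passed the filter (log2 of the mean RPM above -1). The groups overlapped for every one of these 38, while 0.839% of all genes tested had no overlap. At the study's thresholds (2-fold and an unadjusted *P*-value under 0.05, limma), *Peg3* and *Usp29* were higher and *Phlda2* was lower in cryptorchid spermatogonia. That is 5.26% of the 38 higher against 3.56% of all 16932 genes tested, and 2.63% lower against 2.36%. With *Kcnq1*, 4 genes or 10.5% had an unadjusted *P*-value under 0.05, against 9.48% of all genes. These shares are near the background, so they are no result about imprinted genes as a group. None of the 38 had a Benjamini-Hochberg adjusted *P*-value under 0.05 with limma, against 2 of all 16932 genes. With array weights, which give noisier libraries less weight, *Peg3* (0.0293) and *Phlda2* (0.0315) were under it, among 476 of all 16932 genes. Over all genes 60.2% of the calls were higher, and with quantile normalization 45.7%.

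**Figure D1:**
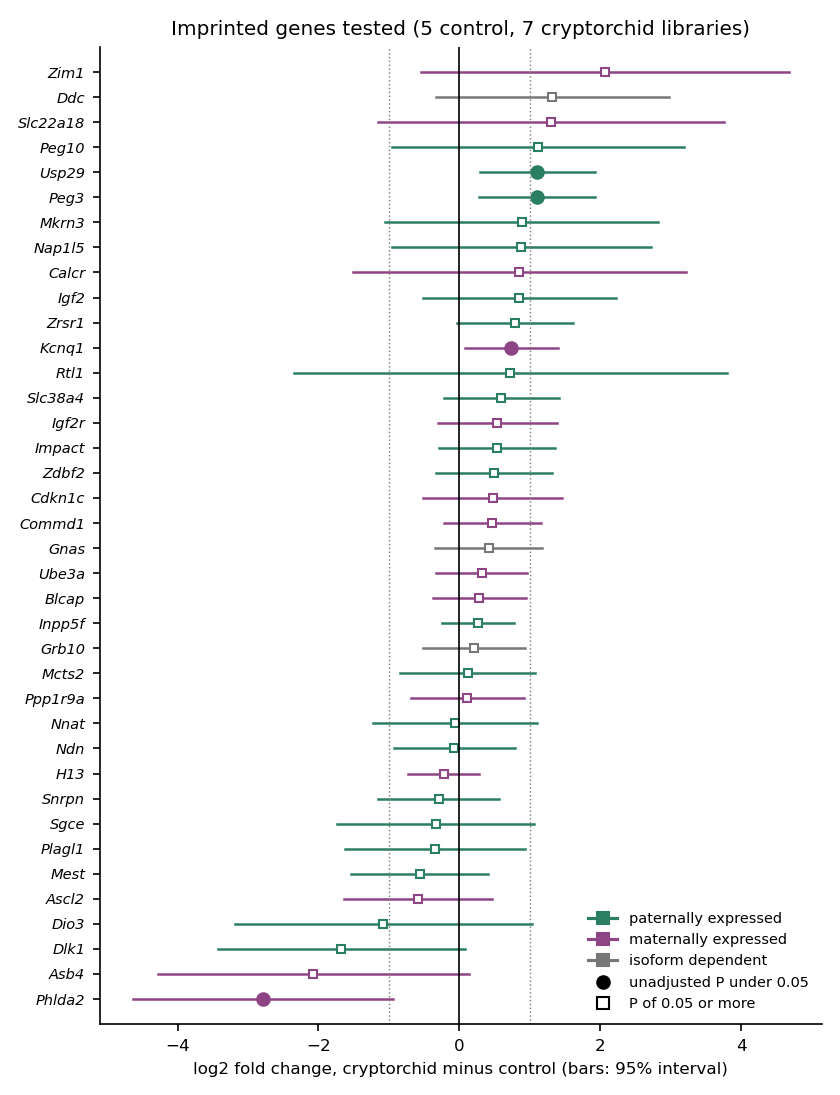
Log2 fold change (cryptorchid minus control) of the 38 imprinted genes tested, with 95% intervals from limma, coloured by parental class. The intervals of *Usp29*, *Peg3*, *Kcnq1* and *Phlda2* leave out 0, and dotted lines mark a 2-fold change.

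*Peg3* and *Usp29* are neighbours on chromosome 7 that are read in opposite directions from a shared, CpG-rich start region, which is methylated on the maternal copy in somatic cells. *Peg3* (GRCm38 chr7:6703892-6730431, minus strand) encodes a large zinc finger protein, and *Usp29* (chr7:6730578-6967219, plus strand) a ubiquitin-specific protease. Only 163 bases lie between their RefSeq start sites, at 6730419 and 6730583. This stretch and the first bases of *Usp29* are shown because both genes that passed the thresholds upwards start from it, at chr7:6730420-6730607 on the plus strand, with the 8 CpG dinucleotides in capitals:

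Peg3-Usp29 interval: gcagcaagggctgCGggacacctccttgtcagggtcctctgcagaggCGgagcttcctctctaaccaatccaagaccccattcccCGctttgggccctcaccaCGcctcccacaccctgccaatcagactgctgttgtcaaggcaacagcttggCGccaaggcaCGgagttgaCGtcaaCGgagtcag

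The interval holds CCAAT at 6730484 and at 6730539, and TGACGTCA, the letters of a cAMP response element, at 6730590, 7 bases past the *Usp29* start site. Among the RefSeq windows of 300 bases around a start site, 2.03% of 27025 genes held TGACGTCA on either strand and 41.1% held CCAAT. A match is a description of the letters and not a binding site.

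*Usp29* stood at 3.58, 2.54, 3.29, 3.42 and 2.53 log2 RPM in control replicates 1 to 5, and at 4.0, 4.61, 4.64, 4.62, 4.29, 3.77 and 3.33 in cryptorchid replicates 1 to 7. Of the 7 cryptorchid libraries, 6 lay above the highest control, and replicate 7 fell within the control range. The means were 3.07 ± 0.50 (SD, n = 5) and 4.18 ± 0.51 (SD, n = 7), a log2 fold change of 1.11 (SE 0.39, 95% interval 0.29 to 1.93), or 2.16-fold. The unadjusted *P*-value was 0.0109 and the adjusted one 0.379 with limma, and the exact two-sided permutation test over the 792 splits gave 0.00631. The difference was 1.28 in replicates 1 to 3 and 1.03 in the later ones. Neither set alone passed the *P*-value threshold (0.0608 and 0.0954, unadjusted, limma). *Usp29* fell just under 2-fold without control replicate 2 (log2 fold change 0.98) or control replicate 5 (0.97).

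*Peg3* stood at 4.32, 5.20, 6.41, 5.42 and 5.55 log2 RPM in control replicates 1 to 5, and at 5.91, 5.13, 7.27, 6.38, 7.03, 7.13 and 6.52 in cryptorchid replicates 1 to 7. Cryptorchid replicates 3, 5, 6 and 7 were above the highest control, and control replicate 1 was below every cryptorchid library. The means were 5.38 ± 0.75 (SD, n = 5) and 6.48 ± 0.77 (SD, n = 7), a log2 fold change of 1.10 (SE 0.39, 95% interval 0.28 to 1.92). The limma *P*-value was 0.0116 unadjusted and 0.38 adjusted, and the exact two-sided permutation test gave 0.0354. The difference was 0.79 in replicates 1 to 3, under the 2-fold limit, and 1.28 in the later libraries. It was also under 2-fold without control replicate 1 (0.84), cryptorchid replicate 3 (0.97) or cryptorchid replicate 6 (0.99).

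The third gene of this domain, *Zim1*, encodes a zinc finger protein read from the maternal copy. It had 0 to 36 reads in the control and 0 to 87 in the cryptorchid libraries, and was without reads in 3 of the 12. Its log2 fold change was 2.07 (SE 1.24, 95% interval -0.54 to 4.68, unadjusted *P*-value 0.113 with limma). It passed the thresholds with array weights (2.23, unadjusted *P*-value 0.0461) and did not with 1 floor for all libraries (1.12, 0.246). *Zim3*, whose gene model overlaps 2582 exon bases of *Usp29* on the other strand, is not in the table. The strand of the counting is not stated, so reads from that locus on either strand could stand under *Usp29*.

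**Figure D2:**
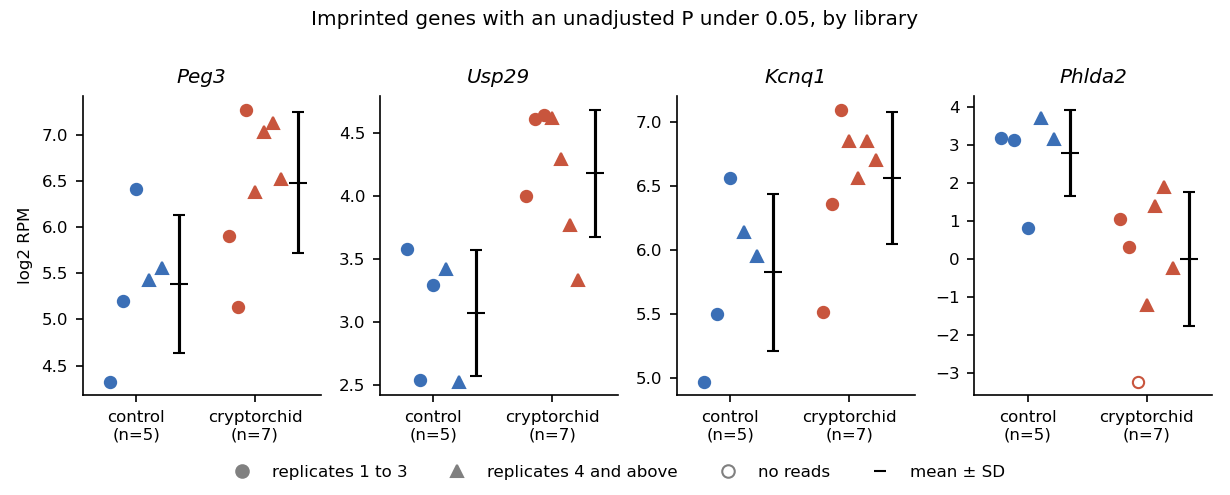
Log2 RPM of *Peg3*, *Usp29*, *Kcnq1* and *Phlda2* in each library, with group means and SD beside the points. Circles are replicates 1 to 3, triangles the later ones, and the open circle is the cryptorchid library without a *Phlda2* read. *Usp29* has 6 of 7 cryptorchid libraries above all controls, and *Phlda2* has 4 below all controls.

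*Phlda2*, a small pleckstrin homology domain protein that restrains growth of the placenta, showed the largest difference of the 38 genes. It lies at the maternally expressed end of the *Kcnq1* domain (GRCm38 chr7:143501545-143503150, minus strand). The 250 bases before its RefSeq start site at 143502524 are shown as the sequence ahead of the only gene that passed the thresholds downwards, read on the minus strand from chr7:143502525-143502774, with 21 CpG dinucleotides in capitals:

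Phlda2 upstream: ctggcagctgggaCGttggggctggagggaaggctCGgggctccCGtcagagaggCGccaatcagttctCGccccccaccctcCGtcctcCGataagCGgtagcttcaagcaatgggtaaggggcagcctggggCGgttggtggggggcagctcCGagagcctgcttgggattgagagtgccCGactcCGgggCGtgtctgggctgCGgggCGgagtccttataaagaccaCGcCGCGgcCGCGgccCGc

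It is 68.8% G and C, and holds TATAAA 30 bases before the start site and CCAAT at 143502713. TATAAA was found in a window of 15.7% of the 27025 RefSeq genes.

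*Phlda2* stood at 3.17, 3.13, 0.82, 3.71 and 3.15 log2 RPM in control replicates 1 to 5, from 219, 252, 18, 72 and 40 reads. In cryptorchid replicates 1 to 7 it stood at 1.04, 0.33, -3.22, -1.21, 1.40, 1.90 and -0.22, from 46, 14, 0, 2, 9, 17 and 4 reads. Apart from control replicate 3, every control was above every cryptorchid library, and 4 of 7 cryptorchid libraries were below the lowest control. The means were 2.80 ± 1.13 (SD, n = 5) and 0.00 ± 1.76 (SD, n = 7). The log2 fold change was -2.79 (SE 0.88, 95% interval -4.64 to -0.95), or 6.93-fold lower, with a limma *P*-value of 0.00524 unadjusted and 0.312 adjusted. The exact two-sided permutation test gave 0.0126, and the difference was -2.99 in replicates 1 to 3 and -2.96 in the later libraries.

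Without cryptorchid replicate 3, the library with 0 reads, the log2 fold change was -2.26, and with 1 floor for all libraries it was -2.61. With log2(RPM + 1), which shrinks all low values, it was -1.85. RNA of spermatocytes and spermatids was also below the lowest control in 4 of 7 cryptorchid libraries. The summed level of 10 marker genes of those cells was 1406, 792, 878, 2446 and 2818 RPM in control replicates 1 to 5 and 384, 435, 533, 1046, 477, 2127 and 851 RPM in cryptorchid replicates 1 to 7. Of these 10 genes, 6 had a lower and 4 a higher mean in the cryptorchid libraries, and 2 were lower at the same thresholds. Over all 16932 genes tested, 7336 had a lower mean and 2.36% were lower at the thresholds. The part of spermatocyte and spermatid RNA in the *Phlda2* value was not tested. Cryptorchid replicate 6 was the highest of its group in both measures. Without the 3 libraries at 2000 RPM or more (control replicates 4 and 5 and cryptorchid replicate 6), the log2 fold change of *Phlda2* was -2.69 (unadjusted *P*-value 0.0313, limma), that of *Usp29* was 1.11 (0.0396) and that of *Peg3* was 1.06 (0.0507). Control replicates 4 and 5 are the only later controls. That fit thus compares controls of replicates 1 to 3 with cryptorchid libraries of both sets, and condition and set are partly mixed in it. In bulk RNA, fewer cells of a type and less RNA per cell cannot be told apart.

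The cluster on distal chromosome 7 holds another 5 of the imprinted genes. *Kcnq1*, a voltage-gated potassium channel, stood at 4.97, 5.50, 6.56, 6.14 and 5.95 log2 RPM in control replicates 1 to 5 and at 5.51, 6.36, 7.10, 6.85, 6.56, 6.85 and 6.70 in cryptorchid replicates 1 to 7. Of the cryptorchid libraries, 4 of 7 were above the highest control, and replicate 1 lay among the lower controls. The log2 fold change was 0.74 (SE 0.32), under 2-fold, with a limma *P*-value of 0.0314 unadjusted and 0.477 adjusted, and the exact two-sided permutation test gave 0.0518. The difference was 0.65 in replicates 1 to 3 and 0.69 in the later libraries. The unadjusted *P*-value rose above 0.05 in 5 of the 12 fits that left out 1 library. The long noncoding RNA *Kcnq1ot1*, which silences maternally expressed genes of this cluster on the paternal copy, is antisense to *Kcnq1* and shares 121 exon bases with it. Whether introns were counted is not stated, so reads of the 2 transcripts may be mixed.

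*Cdkn1c*, the cell cycle inhibitor p57, was at 3.51 ± 0.68 (SD, n = 5) and 3.98 ± 0.85 (SD, n = 7) log2 RPM. *Ascl2*, a basic helix-loop-helix transcription factor of the trophoblast, was at 2.79 ± 0.63 (SD, n = 5) and 2.21 ± 0.44 (SD, n = 7). *Slc22a18*, an organic cation transporter, ranged from 1 to 41 reads in the control and from 1 to 191 in the cryptorchid libraries, and its difference was 2.95 in replicates 1 to 3 and -0.77 in the later ones. None of these 3 had an unadjusted *P*-value under 0.05. Of the 6 genes of the cluster, 4 had a higher and 2 a lower mean in cryptorchid libraries.

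*Igf2*, a fetal growth factor, was at 4.02, 4.10, 3.02, 1.13 and 1.41 log2 RPM in control replicates 1 to 5, and at 2.11 (lowest), 3.59 (median) and 5.41 (highest) in the cryptorchid libraries. The 2 later control libraries, with 12 reads each, were below every other library. The log2 fold change was 0.85 (SE 0.65, unadjusted *P*-value 0.209, limma), with 0.76 in replicates 1 to 3 and 1.65 in the later libraries. It passed the thresholds with a batch term for the 2 sets (1.18, unadjusted *P*-value 0.0224, limma) and in the later libraries alone (1.65, unadjusted *P*-value 0.049). Without the 3 libraries rich in spermatocyte and spermatid markers, its log2 fold change was 0.034 (unadjusted *P*-value 0.959, limma). That last fit leaves out both later controls. *Igf2* shares 3596 exon bases with a read-through gene model, *Gm49394*. Marker RNA of endothelial cells had all 5 genes higher on average and 2 higher at the thresholds. Over all 16932 genes tested, 9596 had a higher mean and 3.56% were higher at the thresholds. The summed level of the endothelial markers was 10.0 to 29.2 RPM in control and 18.4 to 47.5 RPM in cryptorchid libraries. Of these 5 endothelial genes, only *Emcn* was without reads in at least 6 of the 12 libraries. The part of those cells in the *Igf2* value was not tested.

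*Igf2r*, the mannose 6-phosphate receptor that clears IGF2, stood at 6.14, 5.37, 6.20, 6.55 and 7.15 log2 RPM in control replicates 1 to 5 and at 5.92, 5.55, 6.25, 7.31, 7.74, 7.52 and 7.46 in cryptorchid replicates 1 to 7. Cryptorchid replicates 4 to 7 were above all controls and replicates 1 to 3 were within their range. The difference was 0.00 in replicates 1 to 3 and 0.66 in the later libraries, and the log2 fold change over all of them was 0.54 (SE 0.40, unadjusted *P*-value 0.198, limma). Other growth regulators differed by less than the spread between libraries. *Grb10*, an adaptor that dampens insulin and IGF receptor signalling, changed by 0.20 (SE 0.34), *Plagl1*, a zinc finger factor, by -0.34 (SE 0.61), and *Blcap* by 0.29 (SE 0.32).

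*Dlk1*, a noncanonical Notch ligand, was at 3.84, 3.41, 1.93, 2.59 and 2.83 log2 RPM in control replicates 1 to 5. In the cryptorchid libraries it ranged from no reads through a median of 1.25 to 3.70, and 5 of 7 were below the lowest control. The log2 fold change was -1.68 (SE 0.84), with an unadjusted *P*-value of 0.0604 from limma, and the exact two-sided permutation test gave 0.0821. The difference was -0.58 in replicates 1 to 3 and -2.39 in the later libraries. Its neighbours on chromosome 12 had few reads: *Dio3*, the deiodinase that inactivates thyroid hormone, had 1 to 17 reads and a log2 fold change of -1.08 (SE 1.0), and *Rtl1*, a retrotransposon-derived gene, had 0 to 91 reads and 0.72 (SE 1.46).

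In the *Peg10* domain on chromosome 6, *Peg10*, a retrotransposon-derived gene required in the placenta, and *Sgce*, ε-sarcoglycan, share a start region. *Peg10* stood at 0.98, -2.04, 1.29, 2.59 and 3.35 log2 RPM in control replicates 1 to 5 and at -1.67, 2.25, 2.48, 3.15, 3.14, 3.88 and 3.24 in cryptorchid replicates 1 to 7. *Sgce* stood at 2.73, 2.38, 1.90, 1.0 and 3.38 in the controls and at 3.14, 1.47, 0.25, 3.15, 2.75, 0.81 and 2.02 in the cryptorchid libraries. Both ranges overlapped widely, with log2 fold changes of 1.12 (SE 0.99) and -0.34 (SE 0.66). The differences of *Peg10* were 0.94 in replicates 1 to 3 and 0.38 in the later libraries. *Asb4*, a SOCS box protein, had a log2 fold change of -2.07 (SE 1.05, unadjusted *P*-value 0.0643, limma), from 3 to 114 reads in the control and 0 to 91 in the cryptorchid libraries, and its differences were -2.98 in replicates 1 to 3 and -1.19 in the later ones. *Ppp1r9a*, the actin-binding protein neurabin, was well detected at 6.45 ± 1.03 (SD, n = 5) and 6.56 ± 0.46 (SD, n = 7). *Calcr*, the calcitonin receptor, had reads only in replicates 1 and 2 of either group, at most 55.

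The *Snrpn* domain on chromosome 7 is the counterpart of the human Prader-Willi and Angelman region. *Snrpn*, which encodes the spliceosome protein SmN, stood at 4.20, 4.64, 3.28, 5.37 and 4.43 log2 RPM in control replicates 1 to 5 and at 4.50, 4.05, 3.91, 4.72, 4.42, 2.90 and 4.13 in cryptorchid replicates 1 to 7. The groups overlapped over most of their range, and the log2 fold change was -0.29 (SE 0.41), with 0.11 in replicates 1 to 3 and -0.86 in the later libraries. *Ndn*, a MAGE family protein, changed by -0.07 (SE 0.41), *Ube3a*, a ubiquitin ligase, by 0.32 (SE 0.31), and *Mkrn3*, a makorin RING finger protein with 1 to 83 reads, by 0.89 (SE 0.92). *Magel2* and *Peg12* were below the filter. *Magel2*, another MAGE family protein, had 30 reads in control replicate 1, 18 in cryptorchid replicate 1, 17 in cryptorchid replicate 3 and 2 in cryptorchid replicate 7. *Peg12* had 3 reads in cryptorchid replicate 5 and 2 in cryptorchid replicate 7, and 0 reads in the other libraries, which at this depth allows up to 3 reads in each.

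**Figure D3:**
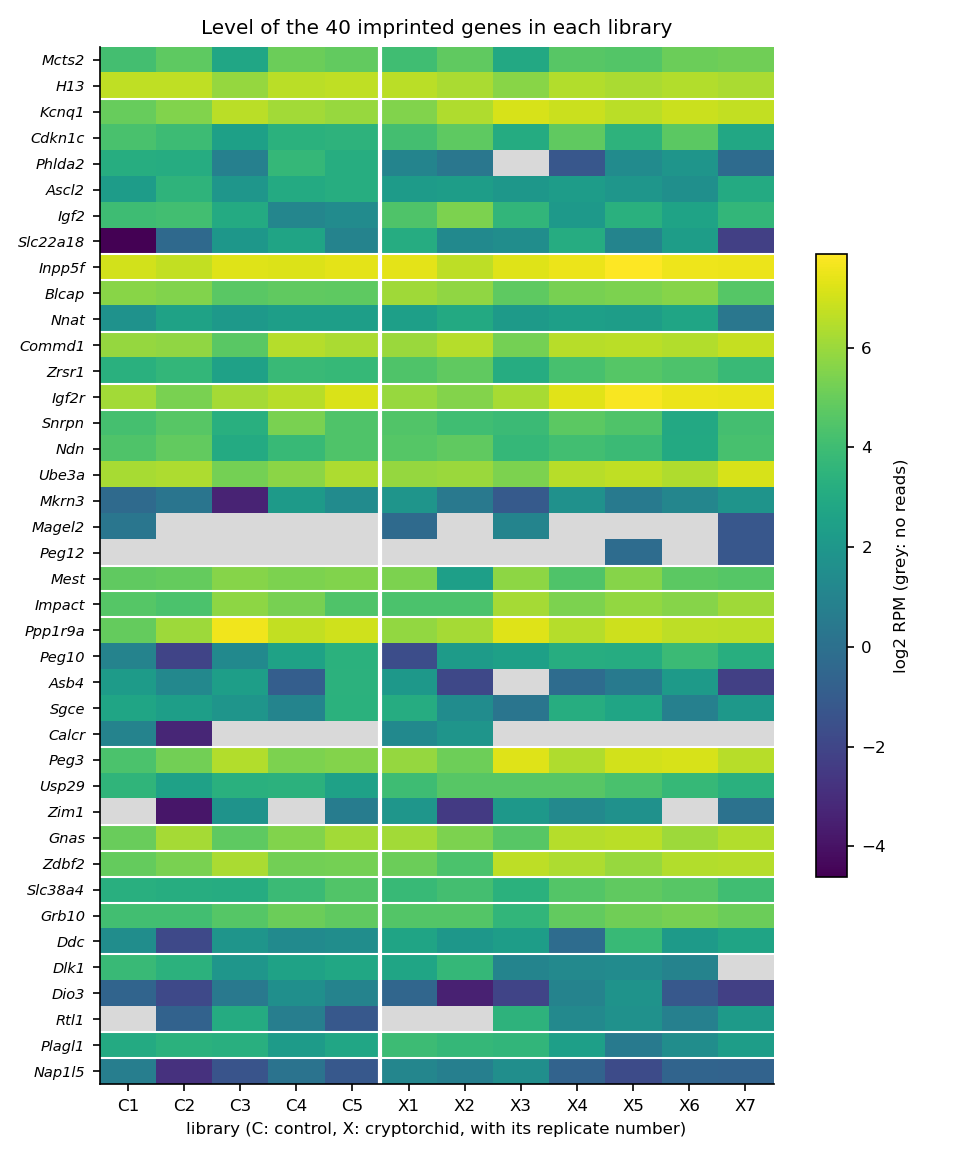
Log2 RPM of all 40 imprinted genes (rows, grouped by domain with white lines) in the 5 control and 7 cryptorchid libraries (columns). Grey cells had no reads. *Inpp5f*, *H13* and *Igf2r* are above 5 log2 RPM in every library, while *Peg12*, *Magel2* and *Calcr* are grey in most.

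Per kilobase of exon (RPKM, from GENCODE vM21 exon lengths), 8 of the 40 genes stood highest by the mean over all 12 libraries, and they were *Mcts2*, *Kcnq1*, *Inpp5f*, *Blcap*, *Commd1*, *Igf2r*, *H13* and *Snrpn*. The set differed within the groups: *Mest* (9.92 RPKM) was above *Igf2r* (9.04) in the controls, and *Impact* (9.30) and *Cdkn1c* (8.90) were above *H13* (8.88) and *Snrpn* (8.40) in the cryptorchid libraries. In the controls *Mcts2* reached 25.3 ± 11.8 RPKM (SD, n = 5), and in the cryptorchid libraries 26.6 ± 10.7 (SD, n = 7). *Inpp5f* reached 16.9 ± 2.72 and 20.7 ± 4.87. *Inpp5f* stood above *Blcap* by more than the SD of either in both groups, while the other neighbours in this order of 8 differed by less than the larger SD in each group. *Mcts2*, a retrogene, could share reads with its parent gene *Mcts1*. *Peg3* was 13th at 3.48 ± 1.80 and 7.46 ± 3.32 RPKM, and *Phlda2* 17th at 7.40 ± 3.64 and 1.40 ± 1.18. *Usp29*, with 18.1 kb of exon, was 31st at 0.49 ± 0.16 and 1.05 ± 0.33.

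*Inpp5f*, a phosphoinositide phosphatase, stood at 7.02, 6.73, 7.28, 7.20 and 7.35 log2 RPM in control replicates 1 to 5 and at 7.37, 6.65, 7.25, 7.49, 7.87, 7.54 and 7.53 in cryptorchid replicates 1 to 7. Its log2 fold change of 0.27 had an SE of 0.24 and a 95% interval of -0.24 to 0.78, so a 2-fold change in either direction lies outside it. *H13*, a signal peptide peptidase with an interval of -0.73 to 0.29, was likewise bounded within 2-fold.

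Another 3 pairs of genes, each with 1 gene inside the other, allow the paternally and maternally expressed members of 1 locus to be set side by side. *Mcts2*, a translation factor, sits inside *H13* and stood at 4.16, 4.78, 2.80, 5.08 and 4.88 log2 RPM in control replicates 1 to 5 and at 4.05, 4.80, 2.93, 4.63, 4.55, 5.07 and 5.17 in cryptorchid replicates 1 to 7. *H13* stood at 6.69, 6.69, 5.89, 6.59 and 6.66 in the controls and at 6.56, 6.31, 5.64, 6.42, 6.29, 6.45 and 6.28 in the cryptorchid libraries. In both groups replicate 3 was the lowest library for both genes, and the log2 fold changes were 0.12 (SE 0.46) and -0.22 (SE 0.24).

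*Nnat*, an endoplasmic reticulum proteolipid that acts on calcium handling, sits inside *Blcap*. *Nnat* stood at 1.75, 2.60, 2.14, 2.40 and 2.41 log2 RPM in control replicates 1 to 5 and at 2.43, 2.98, 2.18, 2.43, 2.32, 2.72 and 0.36 in cryptorchid replicates 1 to 7. *Blcap* stood at 5.65, 5.52, 4.68, 4.83 and 4.76 in the controls and at 6.10, 5.79, 4.79, 5.33, 5.41, 5.61 and 4.58 in the cryptorchid libraries. For *Nnat* the log2 fold change was -0.06 (SE 0.55), and its sign turned with the processing.

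*Zrsr1*, a splicing factor related to U2AF, sits in *Commd1*, a copper metabolism gene, on the other strand with 412 shared exon bases. *Zrsr1* stood at 3.33, 3.63, 2.53, 3.84 and 3.73 log2 RPM in control replicates 1 to 5 and at 4.43, 4.83, 3.12, 4.23, 4.60, 4.40 and 3.84 in cryptorchid replicates 1 to 7. *Commd1* stood at 5.91, 5.81, 4.69, 6.46 and 6.27 in the controls and at 5.98, 6.49, 5.26, 6.54, 6.60, 6.44 and 6.77 in the cryptorchid libraries. *Zrsr1* was above the highest control in 5 of 7 cryptorchid libraries. Its log2 fold change was 0.79 (SE 0.39, unadjusted *P*-value 0.0587, limma), and the exact two-sided permutation test gave 0.0404. Its difference was 0.96 in replicates 1 to 3 and 0.48 in the later libraries. The log2 fold change of *Commd1* was 0.47 (SE 0.33). Since the 2 genes overlap and strand is not stated, their reads may be mixed.

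The remaining 7 genes had unadjusted *P*-values above 0.05. *Mest*, a hydrolase-fold protein, changed by -0.56 (SE 0.46), and 912 of its exon bases overlap *Copg2* on the other strand. *Gnas*, the stimulatory G protein subunit, changed by 0.42 (SE 0.36), *Impact*, which restrains the translation kinase GCN2, by 0.53 (SE 0.39), *Zdbf2*, a zinc finger protein, by 0.49 (SE 0.39), and *Slc38a4*, an amino acid transporter, by 0.60 (SE 0.39). *Nap1l5*, related to nucleosome assembly proteins, had 1 to 49 reads and changed by 0.88 (SE 0.87), and *Ddc*, aromatic amino acid decarboxylase, by 1.32 (SE 0.79). *Zdbf2* differed between the sets, with -0.17 in replicates 1 to 3 and 1.07 in the later libraries, where it passed the thresholds (unadjusted *P*-value 0.00111, limma).

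By parental class, 13 of 21 paternally expressed genes tested had a higher mean in cryptorchid libraries and 8 a lower one, with a median log2 fold change of 0.49. Of the 14 maternally expressed genes, 10 were higher on average and 4 lower (median 0.39), and the 3 isoform-dependent genes were all higher on average (median 0.42). Over the 38 genes the median was 0.44, with 26 higher and 12 lower means. Over all 16932 genes it was 0.10, with 9596 higher and 7336 lower means. Without control replicate 3 the median of the 38 was 0.23 (all genes 0.0071). In the later libraries alone it was 0.22 (all genes 0.013), and in replicates 1 to 3 alone 0.25 (all genes 0.057). Of the 38, 25 had the same sign in replicates 1 to 3 and in the later libraries, 17 of them higher and 8 lower. The same count over all genes is not given here, so this is no result about imprinted genes as a group.

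**Figure D4:**
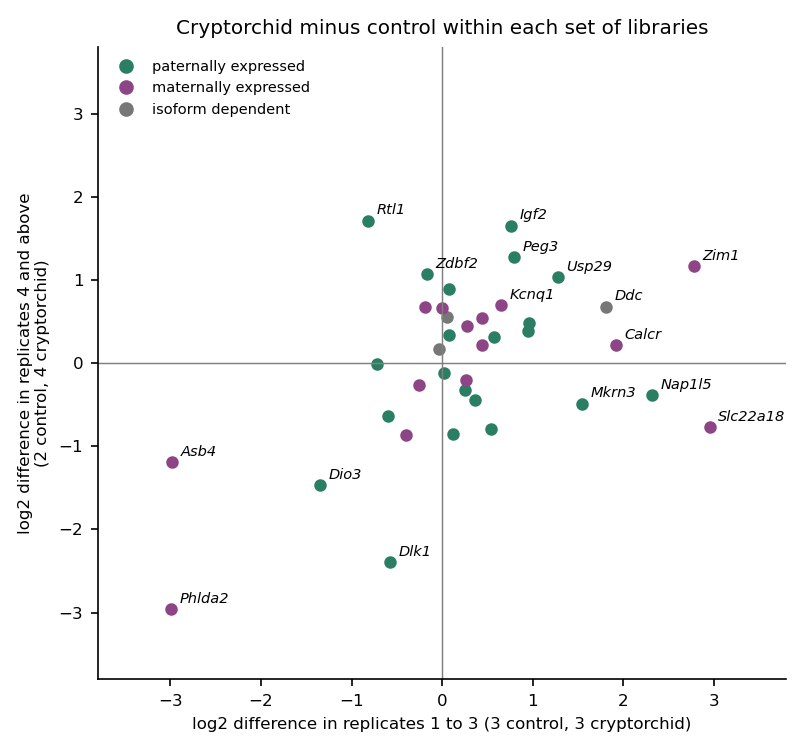
Difference in mean log2 RPM (cryptorchid minus control) of the 38 genes in replicates 1 to 3 (x axis) and in the later libraries (y axis), coloured by parental class. *Phlda2* is near -3 on both axes and *Usp29* above 1 on both, while *Slc22a18*, *Nap1l5* and *Mkrn3* change sign between the axes.

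In RefSeq, 34 of the 40 genes matched a window of 250 bases before to 50 after a start site, and *Cdkn1c*, *Peg10*, *Rtl1*, *Impact*, *Sgce* and *Kcnq1* did not. For a gene with several windows, the one with the most CpG dinucleotides was taken, which favours genes with many start sites. By this measure the 34 genes held a median of 17, and 27025 RefSeq genes a median of 8. Those 27025 are not the same set as the 21859 genes of the expression table. The median was 22 for 12 maternally expressed, 15 for 19 paternally expressed and 40 for 3 isoform-dependent genes. A match in any window of a gene counted. By this rule TGACGTCA was found for 3 of the 34 genes, *Peg3* and *Usp29* by the same site and *Zdbf2*, and CCAAT for 14. GAANNTTC, letters that occur in heat shock elements, was found for 2 of the 34 (*Nnat* and *Slc38a4*) and for 9.04% of the 27025 genes.

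Genes that set, keep or remove imprints were listed as well, and of 18 tested 1 was higher (5.56%, against 3.56% of all genes) and 1 lower (5.56%, against 2.36%) at the thresholds. With *Zfp445*, 3 of the 18 (16.7%) had an unadjusted *P*-value under 0.05, against 9.48% of all genes. *Tet1*, which oxidizes 5-methylcytosine, was at 2.09, 2.28, 1.11, 0.35 and -0.17 log2 RPM in control replicates 1 to 5 and at 2.43, 3.29, 4.06, 2.65, 3.44, 3.27 and 3.45 in cryptorchid replicates 1 to 7. All cryptorchid libraries were above all controls, and the log2 fold change was 2.09 (SE 0.57), with a limma *P*-value of 0.00179 unadjusted and 0.223 adjusted. The difference was 1.43 in replicates 1 to 3 and 3.11 in the later libraries. *Dnmt3b*, a de novo DNA methyltransferase, was at 7.74, 6.73, 6.22, 7.29 and 7.25 in control replicates 1 to 5 and at 6.75, 5.87, 5.78, 5.57, 6.24, 5.19 and 5.49 in cryptorchid replicates 1 to 7. Cryptorchid replicate 1 and, by a small margin, replicate 5 overlapped the controls, and the log2 fold change was -1.20 (SE 0.31), with a limma *P*-value of 0.00114 unadjusted and 0.215 adjusted. In replicates 1 to 3 the difference was -0.77, under 2-fold, and in the later libraries -1.64. *Zfp445*, a zinc finger protein that keeps imprints, had a log2 fold change of 0.68 (SE 0.32, unadjusted *P*-value 0.0495, limma), with 0.47 and 0.72 in the 2 sets. Among the other genes of this list, *Dnmt1* (-0.26, SE 0.25), *Uhrf1* (-0.10, SE 0.30), *Trim28* (-0.21, SE 0.45) and *Ctcf* (-0.02, SE 0.36) passed neither threshold, and *Zfp57* was at -1.50 (SE 0.94). *Dppa3* was at -2.40 (SE 1.39, unadjusted *P*-value 0.102, limma), with -0.97 in replicates 1 to 3 and -3.52 in the later libraries.

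Of 37 further imprinted genes, 35 were in the table and 31 were tested. *Ago2*, an argonaute protein, was the only one past the thresholds (3.23% higher, against 3.56% of all genes, and 0 lower). It was at 0.98, 2.38, 3.87, 2.0 and 2.41 log2 RPM in control replicates 1 to 5 and at 3.97, 3.41, 3.10, 4.09, 3.59, 4.88 and 3.53 in cryptorchid replicates 1 to 7, and control replicate 3 lay inside the cryptorchid range. The log2 fold change was 1.47 (SE 0.51, unadjusted *P*-value 0.00998 and adjusted 0.372, limma), with 1.09 in replicates 1 to 3 and 1.82 in the later libraries. The median over these 31 genes was 0.13.

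Summed levels of somatic testis cell markers were below those of undifferentiated spermatogonia in every library. Sertoli cell markers came nearer to those of differentiating spermatogonia, at 230 against 269 RPM in cryptorchid replicate 7. The summed level was 1204 to 1770 RPM for undifferentiated spermatogonia in control and 1332 to 2026 RPM in cryptorchid libraries, and 166 to 346 and 210 to 394 RPM for differentiating ones. Sertoli cell markers summed to 35.0 to 247 and 35.8 to 230 RPM, Leydig cell markers to 8.64 to 15.5 and 6.27 to 47.8 RPM, macrophage markers to 3.62 to 23.8 and 10.6 to 36.6 RPM, and myoid cell markers to 1.46 to 16.6 and 0.71 to 14.5 RPM. *Cyp11a1*, *Hsd3b1*, *Cyp17a1*, *Hsd17b3* and *Lhcgr* of Leydig cells were each without reads in at least 6 libraries.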

How the data were processed

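Libraries were grouped by title. Per the labels and methods, trimming was by Trim Galore 0.6.6 and mapping to mm10 by HISAT2 2.1.0, and SeqMonk counted the reads of protein-coding genes. The authors deposited the result as log2 RPM per library, with zeros standing as 0.9 reads. Strand, introns and removal of duplicates are not stated. Reads were recovered from the steps of the values (100% of values under 1000 reads were whole within 0.02). They carry no molecular identifiers, and read limits cover counting error only. In 31 pairs of replicates the counts differed beyond sampling noise, so each library was 1 sample.

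Genes were tested with limma 3.58.1 in R 4.3.3 (eBayes with trend), over the 16932 genes whose mean RPM was above -1 on the log2 scale, and single genes by exact two-sided permutation of the library labels. The test was also run on simulated counts with the same spread setting for all genes, no split into sets, and changes only in well-expressed genes. That run thus does not cover the split seen here or changes in genes with few reads. The study used a count test on read counts, whereas the deposited log2 values were tested here and the recovered reads served only for depth and for voom. Positions and exon lengths are from GENCODE vM21 (GRCm38, the build UCSC names mm10), and start sites and sequences from RefSeq (GRCm38.p6).

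The 40 genes, the lists and the tests were chosen with earlier results of these data known. All 40 are named. Values of every library are given for genes with an unadjusted *P*-value under 0.05 or without overlap between the groups, the 8 highest per kilobase and 5 neighbouring pairs, and list genes are named where past the thresholds. Other names, and the library values of *Igf2* and *Dlk1*, were chosen after their values were seen. The split between replicates 1 to 3 and the later ones was found in the values, not in the labels. The alternatives were other scalings, pseudocounts, filters, array weights, voom, a batch term, each set of libraries alone, a replicate block and each library left out. Leaving out both libraries numbered 3, and the 3 libraries with the most spermatocyte and spermatid RNA, was added after the data were seen.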

Additional observations from a re-analysis of the deposited data

Results flagged for a closer look

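In 9 of 76 groups tested 1 library stood far from the others (Dixon's test), where chance gives about 1 in 20 if values are normal. Several of these values rest on few reads, and the share over all genes was not taken. The count is thus no result about imprinted genes. *Phlda2* was low in control replicate 3, at 0.82 log2 RPM from 18 reads, with the other controls at 3.13 to 3.71. *H13* was low in both libraries numbered 3, at 5.89 in control replicate 3 (605 reads) and 5.64 in cryptorchid replicate 3 (418 reads), with the others at 6.59 to 6.69 and 6.28 to 6.56. *Mest* was low in cryptorchid replicate 2, at 2.43 from 60 reads, with the others at 4.45 to 5.75. *Ddc* was low in control replicate 2, at -1.85 from 8 reads, and *Peg10* in cryptorchid replicate 1, at -1.67 from 7 reads. Cryptorchid replicate 7 was low for *Nnat* (0.36, 6 reads) and *Slc22a18* (-2.22, 1 read). *Calcr* was high in control replicate 1, at 0.98 from 48 reads, with 3 reads or fewer in the other controls.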

How the results depend on the processing

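*Phlda2* stayed lower at the thresholds in all 15 alternatives and all 12 fits that left out 1 library, *Usp29* higher in 13 and 10, and *Peg3* higher in 12 and 9. The number of imprinted genes called higher was 3 with array weights (*Zim1* added), voom (*Ddc* added), a batch term (*Igf2* added) and in the later libraries alone (*Igf2* and *Zdbf2* in, *Usp29* out), 0 in replicates 1 to 3 alone, 1 without the libraries rich in spermatocyte and spermatid markers, and 1 to 3 with 1 library left out. The number called lower was 2 with quantile normalization (*Asb4* added), log2(RPM + 1) (*Dlk1* added), array weights (*Dlk1* added) and without the marker-rich libraries (*Asb4* added), and 1 to 3 with 1 library left out. The median log2 fold change of the 38 genes was 0.22 in the later libraries alone, and 0.23 (without control replicate 3) to 0.44 with 1 library left out.

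Of the imprint control genes 4 were called with array weights, 4 in the later libraries alone, 0 in replicates 1 to 3 alone and 1 without the marker-rich libraries. Of the further imprinted genes 2 were called with quantile normalization, no filter, array weights, a batch term, the later libraries alone or without the marker-rich libraries, 3 with voom, and 1 to 3 with 1 library left out. The sign turned for *Snrpn* (0.11 in replicates 1 to 3 alone, 0.25 without the marker-rich libraries), *Nnat* (0.089 with voom, 0.36 in replicates 1 to 3 alone, -0.19 to 0.25 with 1 library left out), *Sgce* (0.10 with array weights) and *Mcts2* (-0.067 with array weights, -0.050 with a batch term, -0.12 in the later libraries alone, -0.011 without the libraries numbered 3, -0.27 to 0.37 with 1 library left out). The causes were not tested. Calls over all genes changed between these fits as well, as given next. The counts here and in the paragraph above are thus no result about these genes as groups.

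Over all genes, 603 were called higher and 399 lower (60.2% higher), against 457 and 542 with quantile normalization, 580 and 635 with a batch term, 287 and 345 in replicates 1 to 3 alone, 635 and 705 in the later libraries alone, and 893 and 229 without the marker-rich libraries. The fit without the marker-rich libraries holds no later control, so condition and set are partly mixed in it. With array weights 882 of all genes were called higher and 703 lower, with voom 785 and 497, and with log2(RPM + 1) 460 and 392. With no filter, over all 21859 genes, 867 were called higher and 413 lower. With 1 library left out the higher share was 53.2 to 72.7%. The median over all genes was 0.10, and 0.23 with no filter.

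Same-numbered libraries correlated at 0.35, 0.36, 0.41, 0.25 and 0.05 in their deviations from the group means, and 4 of 5 controls correlated best with their own number. As number 5 did not, the numbers were not taken as pairs. With the replicate block, 2 imprinted genes were called lower (*Phlda2* and *Asb4*), 3 higher (*Usp29*, *Zim1* and *Igf2*), 4 imprint control genes and 2 further imprinted genes were called, *Nnat* stood at 0.21 and *Mcts2* at -0.15, and 778 of all genes were called higher and 900 lower. *Peg3* then fell under 2-fold (0.96), and the adjusted *P*-values with limma were 0.0243 for *Phlda2*, 0.0298 for *Kcnq1* and *Peg3* and 0.0426 for *Usp29*. How many of all genes were under 0.05 in this fit is not given here. These values are therefore no result about imprinted genes as a group.

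Genes with few reads are limited by depth: *Zim1*, *Calcr*, *Rtl1*, *Magel2* and *Peg12* were without reads in several libraries.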

Other observations

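The libraries numbered 3 stood at the ends of their groups for several imprinted genes, chosen after their values were seen. Control replicate 3 and cryptorchid replicate 3 were each the lowest of their group for *Mcts2* (2.80 and 2.93 log2 RPM), *H13* (5.89 and 5.64), *Commd1* (4.69 and 5.26) and *Zrsr1* (2.53 and 3.12). They were each the highest of their group for *Peg3* (6.41 and 7.27), *Kcnq1* (6.56 and 7.10), *Ppp1r9a* (7.60 and 7.28), *Zdbf2* (6.27 and 6.63) and *Impact* (5.75 and 6.21). Without both of them, *Peg3* had a log2 fold change of 1.22 (unadjusted *P*-value 0.00619), *Usp29* 1.09 (0.02), *Kcnq1* 0.83 (0.0164) and *Phlda2* -2.75 (0.00153), all with limma.

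*Calcr* had 48 and 3 reads in control replicates 1 and 2, 55 and 41 in cryptorchid replicates 1 and 2, and 0 reads in the other 8 libraries. *Igf2* was at 3.02 to 4.10 log2 RPM in control replicates 1 to 3 against 1.13 and 1.41 in the later controls. In the cryptorchid libraries it was at 3.59 to 5.41 in replicates 1 to 3 and 2.11 to 3.63 in the later ones, and these ranges overlapped.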
